A study of Mus musculus with 24 samples.

Results

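The liver transcriptome of fed mice with and without hepatic Ppara was compared across all measured genes. LKO denotes a liver-specific knockout of Ppara and WT the liver wild type that served as control. All fed arrays were used, namely 6 arrays of 6 LKO animals and 6 arrays of 5 WT animals, because 1 WT animal was hybridised on 2 arrays that were averaged. They are 12 of the 24 arrays, and 11 of the 22 animals, of a study that also fasted mice of both genotypes for 24 h. All animals were C57Bl/6J males of 8 weeks, raised on Safe 04 chow in equal periods of light and dark and killed at ZT16, which is 16 h after lights on. The fed mice ate ad libitum until then. The Cre driver and the deleted part of the gene are not given in the sources used here. The series text counts 6 individual mice in every group, whereas the animal numbers of the labels, which were followed, give 5 WT animals in each feeding state. Liver was taken whole, so that fewer cells of a type and less RNA per cell cannot be told apart.

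PPARA is a nuclear receptor that binds fatty acids and their derivatives. With its partner RXR it occupies DNA at direct repeats of a short motif and raises transcription of genes for fatty acid uptake, activation, oxidation and ketone body synthesis. Hepatocytes are rich in it, and it is best known for the response of the liver to fasting, when fatty acids arrive from adipose tissue. The fed comparison addresses what the receptor maintains when food is at hand.

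Levels are given as log2 of the processed array signal relative to the 75th percentile of that array, so that 0 is a gene at that percentile, and each unit is a doubling. A difference is the LKO mean minus the WT mean on that scale, with the standard error (SE) of a limma fit to all 22 animals, and a gene was called at a Benjamini-Hochberg adjusted p below 0.05 over 17215 genes. The 75th percentile lay between 444.1 and 551.7 intensity units over the fed arrays, and 50.03% to 58.78% of probes were well above background. Fed LKO replicate 3 stood apart from its group. The median absolute deviation of its genes from the median of the other animals of the group was 0.224. For the other LKO animals that value was 0.109 to 0.134. Of the genes of replicate 3, 1007 deviated by 1 or more, against 208 to 418. Its acute phase genes stood 1.39 above the WT mean on average, against -0.123 to 0.169 in the other LKO animals, and its markers of neutrophils and monocytes 0.855, against -0.107 to 0.273. Several results are also given without this animal.

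The array carried 2 probes for Ppara, on chromosome 15 in mm9. At the probe used, at 85632110 to 85632169, the WT levels were 5.16, 5.01, 5.34, 5.43 and 5.5, and the LKO levels ran from 3.93 through a median of 4.73 to 4.97. The lowest LKO value belonged to replicate 3, and all 6 LKO animals lay below all 5 WT animals. The difference was -0.66 (SE 0.14, adjusted p = 0.00651), a 1.58-fold lower signal, and -0.84 at the other probe, at 85637193 to 85637252. Within the 3 array slides, each of which carried fed animals of both genotypes, the difference was -0.99, -0.25 and -0.77. In a fit to the fed animals alone the adjusted p was 0.0899. Since the deleted part is unknown, a probe outside it would check nothing, and transcript that remains does not show that receptor remains.

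Of the 17215 genes, 684 (3.97%) were called in fed LKO mice, 342 lower (1.99%) and 342 higher (1.99%). At least 2-fold differences were reached by 90 lower and 75 higher genes, by 91 and 91 without LKO replicate 3, and by 52 and 40 after normexp background correction, which shrinks differences of dim probes. Of the called genes named here, 18 were not well above background in every fed animal, and their differences depend on how background is treated. After normexp correction 17 of the 18 were over 1.5 times smaller and 14 were called. Most calls were of modest size, with a median size of the difference of 0.524 among the lower and 0.543 among the higher genes. The groups did not overlap for 634 genes (3.68%), with LKO below WT for 333 (1.93%) and above for 301 (1.75%). Without LKO replicate 3 the calls numbered 412 lower and 472 higher, and without WT replicate 1, 257 and 214.

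**Figure D1:**
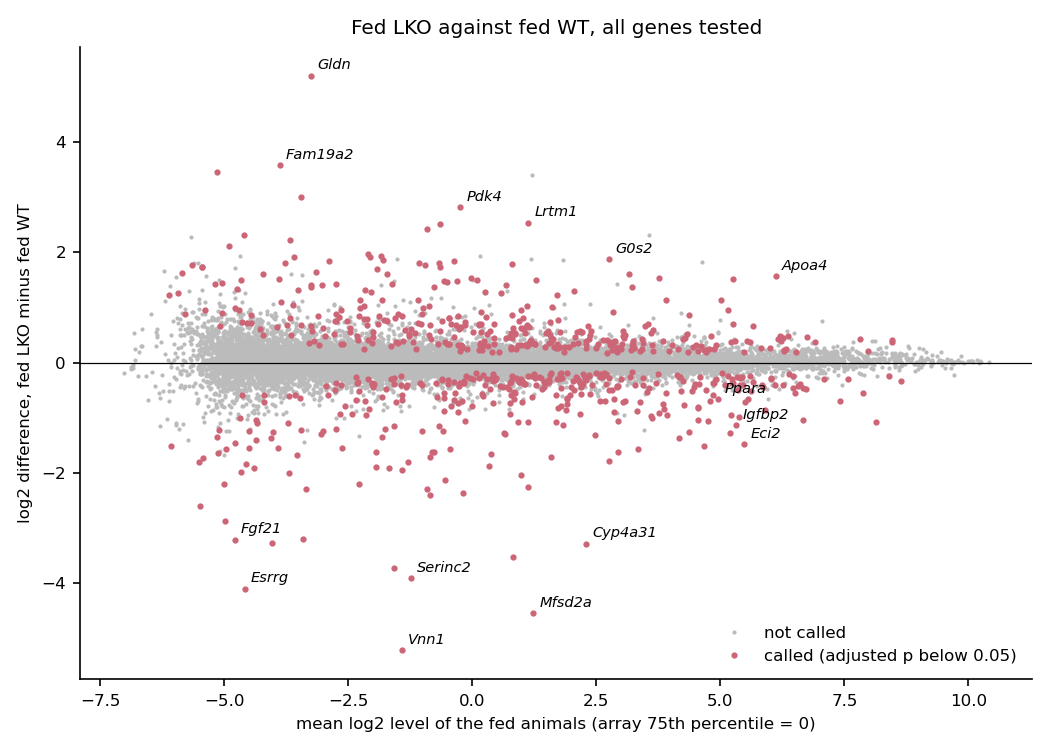
Log2 difference between fed LKO and fed WT means (vertical axis) against the mean log2 level of the fed animals (horizontal axis), 1 point per gene, with called genes in red. The lower extreme is formed by Vnn1 (-5.22) and Mfsd2a (-4.54) and the upper by Gldn (5.20), which was well above background in 1 WT animal. After normexp correction Vnn1 differed by -3.51 and Gldn by 2.47.

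Called genes fell into several roles. Counts of list members given below stand beside 1.99% of all genes called lower and 1.99% called higher. The genes that were lower included members of mitochondrial and peroxisomal fatty acid oxidation and omega-oxidation, carriers, lipid droplet proteins, cholesterol exporters and secreted factors of the liver. The genes that were higher were more scattered, and included a kinase and a lipase inhibitor that limit fuel oxidation, an apolipoprotein and several genes with little signal in WT liver. The genes at both extremes are given animal by animal.

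Vnn1, a pantetheinase that frees pantothenate and cysteamine (chromosome 10, 23624524 to 23624583), stood at 1.70, 0.10, 0.93, 1.92 and 1.29 in the WT animals and between -5.80 and -3.37, with a median of -3.74, in the LKO animals. The lowest LKO value was again that of replicate 3, and the nearest animals of the 2 groups were more than 3 log2 units apart. The signal was 37.2-fold lower in LKO (difference -5.22, SE 0.45, adjusted p = 1.59e-07). Vnn1 was well above background in all 5 WT and in 5 of 6 LKO animals. After normexp correction its difference was smaller, at -3.51, so that the fold is not exact. Mfsd2a, a carrier of lysophospholipids (chromosome 4, 122624182 to 122624241), had WT levels of 3.75, 2.51, 4.13, 3.76 and 3.31 and LKO levels from -2.17 through -1.24 to 0.60, a 23.3-fold lower signal (difference -4.54, SE 0.41, adjusted p = 2.7e-07). Here replicate 3 was the LKO animal closest to WT. Serinc2, a serine incorporator family member, and Caln1, a calcium binding protein, had less spread, with WT levels of 0.48 to 1.18 and 0.13 to 0.41 and LKO levels of -3.43 to -2.60 and -4.05 to -3.03. Their signals were 14.9-fold and 13.3-fold lower (adjusted p = 1.22e-11 and 1.12e-10).

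Esrrg, an orphan nuclear receptor of oxidative metabolism, was well above background in all 5 WT animals and in none of the 6 LKO animals. WT levels were -2.81, -2.59, -2.16, -2.27 and -2.89, and LKO levels ran from -7.39 to -4.82 with a median of -6.86. With the LKO arrays set at the lowest signal that counted as detected, Esrrg was 5.05-fold lower (adjusted p = 2.75e-07). After normexp correction the difference was smaller, at -1.24, so that a fold by this rule is no strict lower limit. A neighbouring probe gave -3.60, while a distant probe that was not well above background in any WT animal gave 0.09. Slc35f2 and Kcnk1, a solute carrier and a potassium channel, were likewise detected in all WT and no LKO animals. By the same rule they were 2.51-fold and 2.31-fold lower (adjusted p = 7.37e-06 and 0.00182), and after normexp correction the differences were -0.68 and -0.45. In the other direction, Serpinb1c, a serine protease inhibitor, was detected in all 6 LKO and no WT animals. With the WT arrays set in that way it was 2.61-fold higher (adjusted p = 1.62e-07), and after normexp correction the difference was 0.75.

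Gldn, which encodes gliomedin, a protein of nodes of Ranvier, had WT levels of -7.25, -4.32, -5.75, -5.89 and -6.02, with 1 WT animal well above background, and LKO levels from -1.63 through -0.55 to -0.16. The difference was 5.20 (SE 0.48, adjusted p = 3.92e-07), and 2.47 after normexp correction. Tmeff2, a transmembrane protein with follistatin-like domains, had WT levels of -5.62, -4.33, -6.20, -4.64 and -4.02 and LKO levels from -2.67 to -1.53, with 2 WT animals well above background (difference 3.00, SE 0.45, adjusted p = 0.000306, and 1.30 after normexp correction). Fam19a2, now named Tafa2, had its array signals well above background in 1 of 6 WT arrays and in all 6 LKO animals, with LKO levels from -3.15 to 0.50 (difference 3.58, SE 0.56, adjusted p = 0.000516, and 1.30 after normexp correction). With WT signals at or near background, the size of these differences is not exact.

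**Figure D2:**
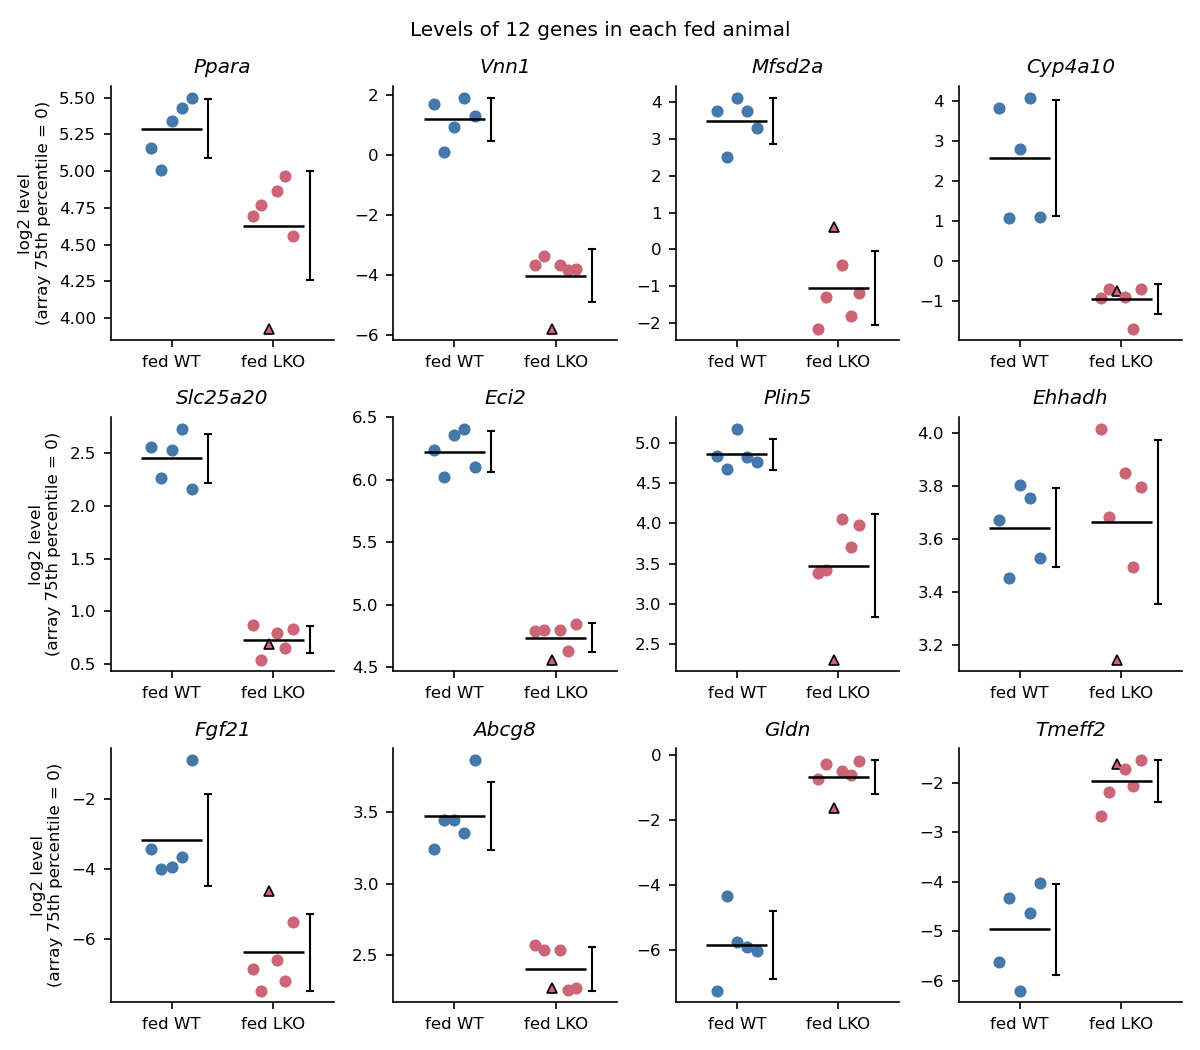
Log2 level (vertical axis, 75th percentile of the array at 0) of 12 genes in each fed animal, with circles for animals, a triangle with a black edge for fed LKO replicate 3, a bar for the mean and an error bar for the SD. The groups separate for 11 genes, whereas for Ehhadh the WT levels of 3.45 to 3.80 lie within the LKO range of 3.14 to 4.02.

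Import of fatty acids into mitochondria and their beta-oxidation formed the most uniform group. Of 26 measured genes, 17 were lower and none higher, where 1.99% of all genes were lower, and the median difference was -0.43, against 0.02 over all genes. Averaged over the list, the 5 WT animals lay between -0.191 and 0.201 of the WT mean and the 6 LKO animals between -0.626 and -0.407. The list median within the slides was -0.64, -0.38 and -0.35. Without LKO replicate 3, 17 members were lower, and over all alternatives the count ran from 12 to 18.

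Slc25a20, the carnitine-acylcarnitine carrier of the inner membrane, led the list. WT levels were 2.56, 2.27, 2.53, 2.73 and 2.16, LKO levels ran from 0.54 through 0.75 to 0.87, and no animals overlapped (difference -1.72, SE 0.10, 3.29-fold, adjusted p = 2.26e-10). Cpt2, which rebuilds acyl-CoA on the matrix side, was 1.94-fold lower (-0.95, SE 0.09), and the carnitine importer Slc22a5 1.54-fold lower (-0.63, SE 0.15, adjusted p = 0.0146, and 0.0538 without WT replicate 1). Cpt1a, the entry enzyme, differed by -0.36 (SE 0.10, adjusted p = 0.0422), and that call was lost in 12 of 19 alternatives, among them the absence of any of 8 animals (WT 1, 3 or 4, LKO 1, 2, 4, 5 or 6), with adjusted p of 0.0655 to 0.119.

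The dehydrogenases of the first oxidation step are specialised by chain length. Acadvl, for very long chains, had WT levels of 7.20, 7.04, 7.23, 7.32 and 7.15 and LKO levels from 6.00 through 6.16 to 6.23 (difference -1.04, SE 0.05, adjusted p = 8.36e-11). Acadl, for long chains, was lower by the same measure (-1.0, SE 0.08), Acads, for short chains, was 1.43-fold lower (-0.52, SE 0.07), whereas Acadm, for medium chains, had a difference of -0.00 (SE 0.09, adjusted p = 0.998). Acadm had WT levels of 5.95, 5.59, 5.82, 6.15 and 5.63 and LKO levels from 5.60 to 5.96, so its groups overlapped throughout. The differences between these 4 genes were not tested.

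Electrons from these enzymes pass through the electron transfer flavoprotein to its dehydrogenase. Etfdh fell from WT levels of 5.03, 4.76, 5.10, 5.22 and 4.88 to LKO levels of 3.44 to 3.96, with a median of 3.82 (difference -1.25, SE 0.09, 2.38-fold, adjusted p = 9.22e-09). Etfb, a subunit of the flavoprotein, was 1.62-fold lower (-0.70, SE 0.06). Every LKO animal lay below every WT animal for both genes.

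Of the enzymes that follow, the trifunctional protein subunits Hadha and Hadhb were 1.36-fold and 1.5-fold lower, and the thiolase Acaa2 was 1.26-fold lower (adjusted p = 0.000793, 1.39e-05 and 0.00339). Auxiliary enzymes handle unsaturated fatty acids. Eci2, an enoyl-CoA isomerase, had WT levels of 6.24, 6.02, 6.35, 6.41 and 6.10 and LKO levels from 4.56 through 4.80 to 4.85 (difference -1.49, SE 0.07, 2.80-fold, adjusted p = 1.08e-11). Eci1 was 1.58-fold and the dienoyl-CoA reductase Decr1 1.37-fold lower (adjusted p = 3.72e-05 and 0.00282). All 6 LKO animals lay below all 5 WT animals for each of these 6 genes. Of the respiratory chain and ATP synthase downstream, limma called 0 of 39 measured subunit genes in either direction (5, or 12.8%, at an unadjusted p below 0.05, where 15.9% of all genes had one), with a list median of 0.00 and members between -0.28 and 0.22.

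Peroxisomes shorten very long and branched fatty acids. Of 31 measured peroxisomal genes, 12 were lower and none higher, with a list median of -0.23 and of -0.37, -0.17 and -0.13 within the slides. Without LKO replicate 3, 9 were lower. Per animal, the list average lay between -0.189 and 0.113 in WT and between -0.494 and -0.241 in LKO. Eci3, a peroxisomal isomerase next to Eci2 on chromosome 13, had WT levels of 3.93, 3.47, 3.76, 4.05 and 3.50 and LKO levels from 2.06 through 2.12 to 2.21 (difference -1.61, SE 0.09, 3.06-fold, adjusted p = 9.7e-11). Ech1, a dienoyl-CoA isomerase, was 2.43-fold lower (-1.28, SE 0.10), Pxmp4, a membrane protein, 1.84-fold (-0.88, SE 0.10), the multifunctional enzyme Hsd17b4 1.81-fold (-0.86, SE 0.08), the thioesterase Acot8 1.61-fold (-0.69, SE 0.07) and the peroxisomal transporter Abcd3 1.47-fold (-0.55, SE 0.13). Abcd2, another such transporter, of very long chains, was well above background in 1 WT and no LKO animal, so that no fold is given (adjusted p = 0.00312, and 0.23 after normexp background correction). No animals overlapped for any of these 7 genes.

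Other enzymes of the peroxisomal pathway were not called. Ehhadh, the bifunctional enzyme, had a difference of 0.02 (SE 0.12, adjusted p = 0.958), and the thiolase Acaa1b -0.66 (SE 0.20, adjusted p = 0.0645), with overlapping animals for both. Acaa1b passed without WT 2 or LKO 1 (adjusted p = 0.0359 and 0.0271), and also after quantile normalization, after normexp correction and in the deposited table (0.0311 to 0.0479). Acaa1a, the paralogue of Acaa1b, passed at -0.29 (adjusted p = 0.041), and so did Decr2 at -0.39 (adjusted p = 0.000155). The call of Acaa1a was lost without any of 9 animals (WT 1, 3 or 4 or any LKO animal), with adjusted p of 0.0547 to 0.132.

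Omega-oxidation in the endoplasmic reticulum starts with Cyp4a enzymes. Cyp4a10 had WT levels of 3.84, 1.09, 2.81, 4.09 and 1.1 and LKO levels from -1.70 through -0.82 to -0.70. WT animals differed among themselves by up to 3 log2 units, with replicates 2 and 5 low, yet every LKO animal lay below every WT animal (difference -3.53, SE 0.55, 11.5-fold, adjusted p = 0.00041). Cyp4a31 followed the same order of WT animals (5.14, 2.32, 4.13, 5.49 and 2.55, against 0.06 to 1.07 in LKO, 9.72-fold lower), but these genes are near-identical copies whose probes may read each other's transcripts. Cyp4a14 was well above background in 3 of 5 WT and no LKO animals and was not called (adjusted p = 0.154). Of the 15 measured genes of omega-oxidation and arachidonate Cyp4 enzymes, 3 were lower and none higher, the third being the fatty aldehyde dehydrogenase Aldh3a2 (-0.95, SE 0.19, 1.93-fold, adjusted p = 0.00425). The groups for Aldh3a2 met at 3.79, with LKO replicate 3 lowest at 2.55.

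Ketone bodies are made from acetyl-CoA in liver mitochondria and leave the cell through monocarboxylate carriers. Of the 10 measured genes of ketone body synthesis and use, 3 were lower, among them the mitochondrial dehydrogenase Bdh1 at -0.40, and 2 were higher, the cytosolic dehydrogenase Bdh2 at 0.59 and the monocarboxylate carrier Slc16a1 at 0.38. Without any of WT 1, WT 4 or LKO 5, 1 member was lower. Bdh1 lost its call without 8 animals (WT 1, 3, 4 or 5, LKO 3, 4, 5 or 6, adjusted p of 0.055 to 0.108).

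Among 22 genes of fatty acid uptake, binding and activation, 3 were lower and 1 higher. Besides Mfsd2a, lipoprotein lipase (Lpl) was 1.57-fold lower (-0.65, SE 0.13, adjusted p = 0.00383, and 0.208 with its probes averaged) and the acyl-CoA synthetase Slc27a2 1.24-fold lower (-0.31, adjusted p = 0.0341). The binding protein Fabp5 had WT levels of 3.57, 5.49, 5.13, 2.73 and 5.52 and LKO levels from 5.48 through 5.89 to 6.5, so that the groups met at the top of WT (difference 1.52, SE 0.42, adjusted p = 0.0448). Within the slides the difference of Fabp5 was 3.31, 0.57 and 0.34. Its call was lost without any of 8 animals (WT 1 or 4 or any LKO animal, adjusted p of 0.0504 to 0.14), and that of Slc27a2 without any of 7 (WT 1, 3 or 4, LKO 1, 3, 4 or 5, adjusted p of 0.0531 to 0.101). The liver form Fabp1 (-0.23, adjusted p = 0.406) and the transporter Cd36 (0.60, adjusted p = 0.0858) were not called.

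Lipid droplet genes were called in both directions. Of 23 measured, 5 were lower and 1 higher, where 1.99% of all genes were called each way. Fitm1, which partitions triglyceride into droplets, had WT levels of 1.02, 0.70, 0.90, 1.43 and 0.92 and LKO levels from -2.93 through -1.08 to -0.80 (difference -2.37, SE 0.34, 5.17-fold, adjusted p = 0.000183), and its paralogue Fitm2 was 1.62-fold lower (adjusted p = 0.00212). Plin5, the perilipin that tethers droplets to mitochondria, was 2.60-fold lower, with WT levels of 4.68 to 5.17 and LKO levels of 2.31 to 4.06 (-1.38, SE 0.24, adjusted p = 0.00146), and the droplet dehydrogenase Hsd17b11 was 2.07-fold lower (-1.05, SE 0.11, adjusted p = 1.44e-06). Replicate 3 was the lowest LKO animal for Fitm1 and Plin5, and no animals overlapped for these 4 genes. Cidea was well above background in 1 WT and no LKO animal, so that no fold is given (adjusted p = 0.0431, lost in 12 of 19 alternatives, among them the absence of any of WT 1, 4 or 5 or LKO 1, 2, 4 or 6 at 0.0665 to 0.0936). The general coat protein Plin2 differed by -0.11 (adjusted p = 0.736) and Cidec by -0.67 (adjusted p = 0.235).

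The member that was higher, G0s2, inhibits the triglyceride lipase of droplets (chromosome 1, 195098925 to 195098984). Its WT levels were 2.41, 1.28, 1.41, 1.81 and 2.18, and its LKO levels ran from 2.63 through 3.59 to 4.96, with no overlap (difference 1.87, SE 0.37, 3.66-fold, adjusted p = 0.00433). Within the slides the difference was 0.66, 3.16 and 2.00. Pdk4, the kinase that switches off pyruvate dehydrogenase (chromosome 6, 5433441 to 5433500), was the single called gene of 12 in its list. Its WT levels were -1.45, -2.20, -1.12, -2.07 and -1.38, and its LKO levels ran from 0.32 through 1.15 to 2.17, all above WT (difference 2.81, SE 0.29, 7.02-fold, adjusted p = 1.83e-06).

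Acyl-CoA thioesterases release fatty acids from coenzyme A. Of 13 measured, Acot6 was higher (1.32, SE 0.16, adjusted p = 2.93e-05, and 0.47 with its probes averaged) and Acot8 lower. Acot1 (0.81, adjusted p = 0.113) and Acot3 (0.70, adjusted p = 0.534) did not pass, and their WT animals ranged from 1.85 to 3.92 and from -2.21 to 0.95. These genes lie in a cluster of close paralogues whose probes may read each other's transcripts. Without LKO replicate 3, 3 thioesterases were higher. In the list of vanins and coenzyme A metabolism, 2 of 13 were lower, Vnn1 and the synthesis enzyme Ppcs (-0.22, adjusted p = 0.0284), the latter lost without any of WT 3, 4 or 5 or LKO 2 or 6 (adjusted p of 0.0522 to 0.0812).

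**Figure D3:**
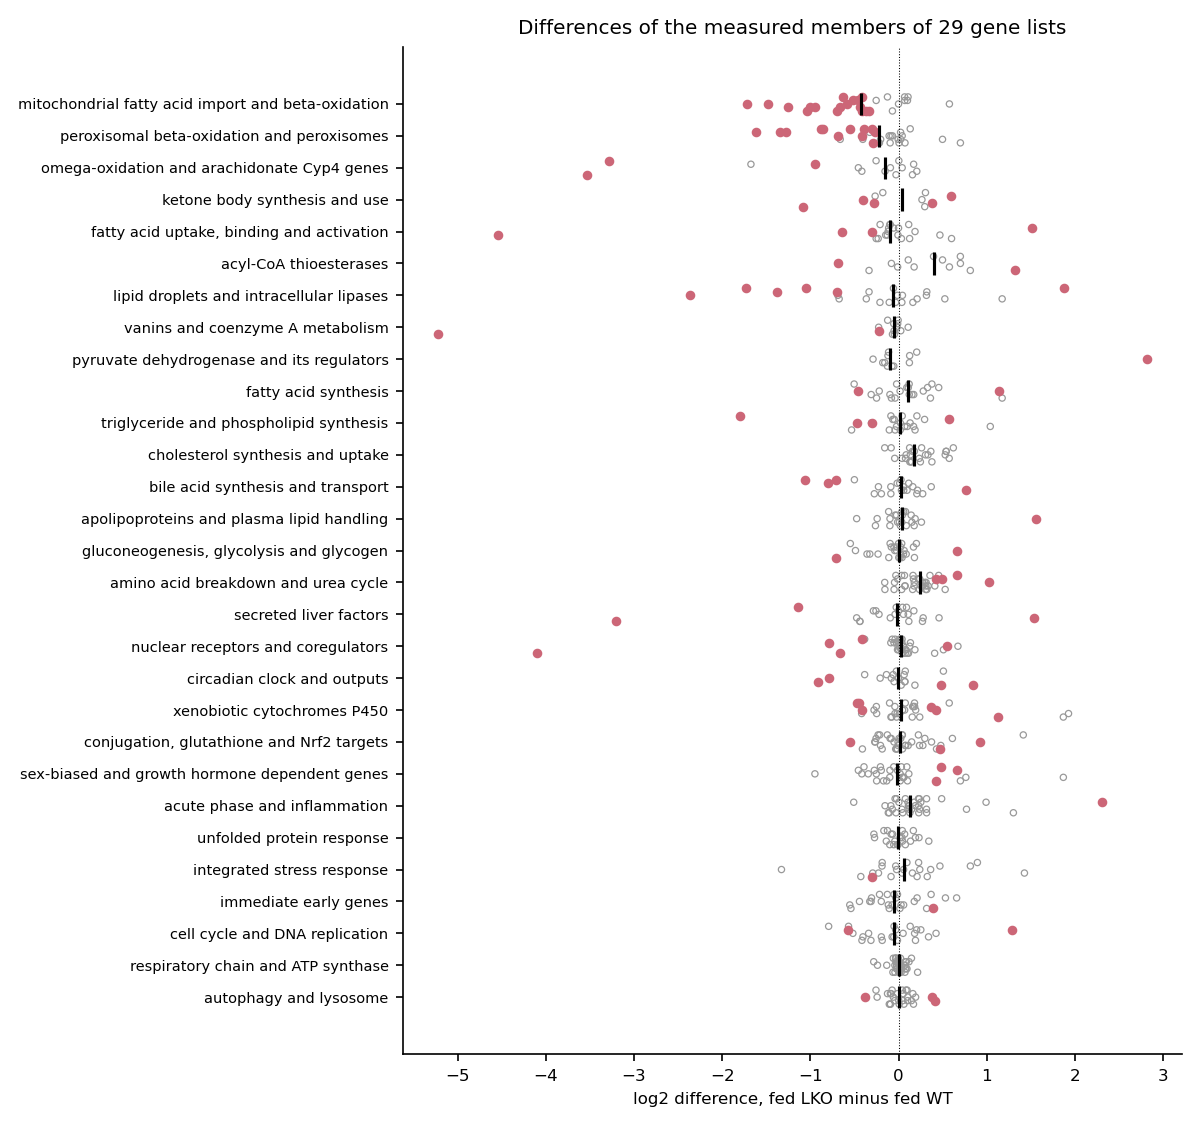
Log2 differences (fed LKO minus fed WT, horizontal axis) of the measured members of 29 gene lists (vertical axis), with filled red points for called genes, open points for genes not called and a black bar for the list median. The medians of the mitochondrial and peroxisomal oxidation lists lie at -0.43 and -0.23, while that of the respiratory chain lies at 0.00.

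Of 23 genes of fatty acid synthesis, 1 was higher and 1 lower, where 1.99% of all genes were called each way. By limma 5 of them (21.7%) had an unadjusted p below 0.05, against 15.9% of all genes. The list median was 0.11, with slide medians of 0.34, -0.07 and -0.17 that differ in sign. Acacb, the mitochondrial acetyl-CoA carboxylase whose product inhibits Cpt1a, had WT levels of 4.24, 5.18, 4.61, 2.91 and 5.30 and LKO levels from 5.04 through 5.67 to 5.95 (difference 1.14, SE 0.30, adjusted p = 0.0335). That call was lost without any of WT 1, WT 3 or LKO 1, 2, 4 or 6 (adjusted p of 0.0568 to 0.0883). The desaturase Fads2 was 1.38-fold lower (-0.46, adjusted p = 0.0197, lost without WT 1 or 3 at 0.0521 and 0.0707).

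The fatty acid synthase Fasn had WT levels of 7.38, 8.45, 7.80, 6.89 and 8.77 and LKO levels from 7.13 through 8.16 to 8.33 (difference 0.11, SE 0.26, adjusted p = 0.895), with replicate 3 the lowest LKO animal. Scd1 (0.38, adjusted p = 0.676) and the regulator Srebf1 (-0.25, adjusted p = 0.333) were not called. WT animals were spread widely here. Averaged over the list they ran from -0.664 in replicate 4 to 0.533 in replicate 5, more than the LKO animals at -0.346 to 0.466. WT replicates 2 and 5, with the highest Fasn, were those with the lowest Cyp4a10, which is a description of 5 animals.

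In triglyceride and phospholipid synthesis, 3 of 23 genes were lower and 1 higher. The acyltransferase Agpat9, now Gpat3, was 3.49-fold lower, with WT levels of -0.72, -1.28, 0.33, 0.13 and -0.41 and LKO levels from -2.77 through -2.36 to -0.92 (difference -1.80, SE 0.32, adjusted p = 0.00183). Only LKO replicate 3, at -0.92, reached the WT range. Gpd1, the cytosolic glycerol phosphate dehydrogenase, was 1.38-fold lower (-0.47, adjusted p = 0.0327), Agpat3 1.24-fold lower (-0.31, adjusted p = 0.0327) and the choline kinase Chka 1.49-fold higher (0.57, adjusted p = 0.0215). The count of lower genes was 1 without any of WT 3, 4 or 5 or LKO 3 or 5. Gpd1 lost its call without any of 6 animals (WT 3, 4 or 5, LKO 2, 3 or 5) at 0.0527 to 0.0908, Agpat3 without any of 7 (WT 3, 4 or 5, LKO 1, 3, 4 or 5) at 0.0503 to 0.0924, and Chka without WT 4 or 5 at 0.0508 and 0.0692. Of 25 genes of cholesterol synthesis and uptake limma called 0 in either direction (6, or 24.0%, at an unadjusted p below 0.05, against 15.9% of all genes), with a median of 0.18 that was 0.53, -0.05 and 0.07 within the slides, and without WT replicate 2, 3 of them were higher.

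Of the 23 measured genes of bile acid synthesis and transport, 3 were lower and 1 higher, where 1.99% of all genes were called each way. Abcg5 and Abcg8, the partners of the sterol exporter into bile, lie side by side on chromosome 17. Abcg8 had WT levels of 3.24, 3.45, 3.44, 3.35 and 3.87 and LKO levels from 2.26 through 2.40 to 2.57 (difference -1.06, SE 0.11, 2.09-fold, adjusted p = 1.25e-06), and Abcg5 had WT levels of 4.89 to 5.08 and LKO levels of 4.04 to 4.25 (-0.80, SE 0.08, 1.74-fold, adjusted p = 1.44e-06). Abcb4, the phosphatidylcholine flippase, was 1.64-fold lower (-0.71, SE 0.09, adjusted p = 3.6e-05), and Abcg2, which exports urate and xenobiotics, 1.63-fold lower (-0.70, SE 0.12, adjusted p = 0.00103). No animals overlapped for these 4 genes. Abcg5, Abcg8 and Abcb4 were the lower members of the list, and Abcg2 is no member of it. The uptake carrier Slco1a4 was the higher member (0.76, adjusted p = 0.0169, lost without WT 3 or 5 at 0.0568 and 0.0505). Cyp7a1, which starts the classical route of bile acid synthesis, differed by 0.27 (SE 0.42, adjusted p = 0.825).

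Apoa4 was the called member among 23 apolipoproteins and plasma lipid genes. Its WT levels were 4.77, 5.01, 5.59, 5.67 and 5.64, and all LKO animals lay above them, from 6.58 through 6.98 to 7.05 (difference 1.56, SE 0.14, 2.96-fold, adjusted p = 3.15e-07). Angptl4, an inhibitor of lipoprotein lipase, was not called (-0.48, adjusted p = 0.233), with LKO replicate 3 at 4.54 and the other LKO animals at 5.65 to 6.29. Without replicate 3, 3 genes of this list were higher and 1 lower.

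Among 22 secreted factors, 2 were lower and 1 higher. Fgf21, the hormone that carries the fasting signal, had WT levels of -3.44, -4.01, -3.95, -3.67 and -0.88 and LKO levels from -7.50 through -6.74 to -4.64, and was well above background in 5 WT and 1 LKO animals. WT replicate 5 stood far above its group, and replicate 3 was the highest LKO animal. The difference was -3.21 (SE 0.53, adjusted p = 0.000805), but rested on signals near background, and after normexp correction it was -0.92 (adjusted p = 0.0753). Igfbp2, a binding protein of insulin-like growth factors, was 2.20-fold lower with no overlap (-1.14, SE 0.17, adjusted p = 0.000187), and the hepcidin Hamp2 was 2.89-fold higher (1.53, SE 0.35, adjusted p = 0.0139).

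Nuclear receptors and their coregulators included 4 lower and 1 higher of 37, where 1.99% of all genes were called each way. Besides Ppara and Esrrg, the lower ones were the clock repressor Nr1d1 (-0.79, adjusted p = 0.0356) and the membrane-bound factor Creb3l3, a partner of PPARA in the control of Fgf21 (-0.41, SE 0.07, 1.33-fold, adjusted p = 0.000664). Creb3l3 had WT levels of 6.32, 6.44, 6.52, 6.65 and 6.35 and LKO levels from 5.88 through 6.04 to 6.23, with no overlap. Pparg, the related receptor of adipose tissue, was 1.46-fold higher (0.55, SE 0.13, adjusted p = 0.0142, and 0.0526 without WT 3), and the coactivator Ppargc1a differed by 0.13 (adjusted p = 0.863). Of 19 clock genes, Arntl (0.84) and Cry1 (0.48) were higher and Nr1d1 and Dbp (-0.92) lower. Arntl lost its call without WT 2 or 5 or LKO 4, 5 or 6 (adjusted p of 0.0519 to 0.0725), Nr1d1 without WT 1, 2 or 5 or LKO 2, 4 or 6 (0.0782 to 0.101), Dbp without WT 2 or 5 or LKO 6 (0.0533 to 0.0613) and Cry1 with its probes averaged (0.256).

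Xenobiotic cytochromes P450 showed 3 genes lower and 3 higher of 32, where 1.99% of all genes were called each way. The lower genes were Cyp3a11 (-0.47), Cyp3a25 (-0.42) and Cyp3a59 (-0.45), and Cyp3a57 outside that list was lower too (-0.38), so that 4 of 7 measured Cyp3a genes, enzymes of drug and steroid oxidation, fell by a similar amount. These are close paralogues on chromosome 5 whose probes may read each other's transcripts. Cyp3a25 had WT levels of 5.93, 5.83, 6.33, 5.98 and 6.14 and LKO levels from 5.40 through 5.62 to 5.86, which met WT at the edge (SE 0.09, adjusted p = 0.0111). In a fit to the fed animals alone 0 of the 3 lower genes of the list were called. Cyp3a11 lost its call without any of 8 animals (WT 1 to 4, LKO 1, 2, 3 or 5, adjusted p of 0.064 to 0.133) and Cyp3a57 without WT 3 or 5 or LKO 5 (0.0533 to 0.0752).

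The higher genes were Cyp2a4 (0.43), Cyp2a5 (0.37) and Cyp2g1 (1.12, SE 0.18, 2.18-fold, adjusted p = 0.000677), which are neighbours on chromosome 7. Whether the probes of Cyp2a4 and Cyp2a5 read each other's transcripts was not tested. Cyp2g1 had WT levels of -2.18, -2.41, -2.65, -2.68 and -1.97 and LKO levels of -1.58 to -0.92, with no overlap. Cyp2a5 lost its call without any of 8 animals (WT 3, 4 or 5, LKO 1, 2, 4, 5 or 6, adjusted p of 0.0534 to 0.0851). Cyp2b10 and Cyp2b9, targets of the receptor CAR, were not called (1.93 and 1.87, adjusted p = 0.269 and 0.29). LKO replicate 1 stood at 5.75 and 4.09 and the other LKO animals at -0.68 to 1.59 and -2.48 to -0.16.

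Promoters of genes that fell were searched for the repeat that PPARA and RXR bind. RefSeq promoters of GRCm38.p6, from 250 bases before to 50 after the start, were found for 12747 of the genes tested, and both strands were read for AGGTCA repeated directly after 1 base of any kind, N, the direct repeat known as DR1. With up to 2 mismatches a match was found for 5.20% of the genes that were lower (14 of 269), 4.62% of those that were higher (12 of 260) and 4.06% of all 12747. With up to 1 mismatch the shares were 1.86% (5 genes), 0.385% (1 gene) and 0.581%, and a perfect match was found for 8 genes, none of them called. These are counts of letters and were not tested. Of the 5 lower genes with up to 1 mismatch, 3 were Cyp3a paralogues, which carry the same 13 letters at a like distance before the start and so repeat each other. They are shown 5′ to 3′ along the strand of the gene with the match in capitals, beside the matches with 2 mismatches in Aldh9a1, an aldehyde dehydrogenase of carnitine synthesis that was 1.41-fold lower (-0.49, SE 0.08, adjusted p = 0.000699), and in Creb3l3. The other matches in lower genes and all 12 matches in higher genes are not shown, so these sequences do not represent either group. The windows are chr5:146009766-146009825 (minus strand) for Cyp3a25, chr5:145345064-145345123 (plus) for Cyp3a57, chr5:146079050-146079109 (plus) for Cyp3a59, chr1:167349823-167349882 (plus) for Aldh9a1 and chr10:81092765-81092824 (minus) for Creb3l3.
Cyp3a25: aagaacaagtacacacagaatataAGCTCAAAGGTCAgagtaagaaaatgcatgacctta
Cyp3a57: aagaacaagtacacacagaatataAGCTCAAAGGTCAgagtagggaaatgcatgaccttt
Cyp3a59: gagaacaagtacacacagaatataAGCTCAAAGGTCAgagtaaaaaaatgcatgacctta
Aldh9a1: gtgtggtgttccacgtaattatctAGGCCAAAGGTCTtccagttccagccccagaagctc
Creb3l3: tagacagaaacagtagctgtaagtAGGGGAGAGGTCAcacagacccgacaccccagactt

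Amino acid breakdown and the urea cycle had 4 of 38 genes higher and none lower, where 1.99% of all genes were higher. The list median was 0.24, and 0.21, 0.13 and 0.22 within the slides. The averages over the list lay at -0.243 to 0.159 in WT and 0.147 to 0.278 in LKO and met at the edge. The 4 genes were Acmsd, which diverts tryptophan from NAD synthesis (1.02, adjusted p = 0.0399), the aspartate aminotransferase Got1 (0.66, adjusted p = 0.0448), the proline dehydrogenase Prodh (0.49, adjusted p = 0.0195) and the glutaminase Gls2 (0.42, adjusted p = 0.0124). Over the 11 fits that each left out 1 animal the count ran from 1, without WT 1 or 5, to 3. Acmsd lost its call without any animal but WT 2 (0.0545 to 0.108), Got1 without any but WT 3 and LKO 5 (0.0626 to 0.116) and Prodh without WT 1 or 5 (0.0593 and 0.0653). Gls2 lost its call in 2 alternatives that kept every animal (0.0735 and 0.0858). In gluconeogenesis, glycolysis and glycogen 1 gene was higher and 1 lower of 27, Got1 and the mitochondrial glycerol phosphate dehydrogenase Gpd2 (-0.71, SE 0.15, 1.64-fold, adjusted p = 0.00702). The call of Gpd2 was lost in 2 alternatives that kept every animal (adjusted p = 0.0547 and 0.0642).

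The remaining lists are given by their called members, where 1.99% of all genes were lower and 1.99% higher. In conjugation, glutathione and Nrf2 genes, 2 of 38 were higher, Aldh1b1 (0.92, adjusted p = 0.00546) and the sulfotransferase Sult1a1 (0.47, adjusted p = 0.0335), and 1 lower, the epoxide hydrolase Ephx2 (-0.55, adjusted p = 0.00687). Of 31 sex-biased genes 3 were higher, Cyp2a4, Cyp17a1 (0.66, adjusted p = 0.0322) and the complement gene C6 (0.48), and that count was 1 without WT 3 or 5. In acute phase and inflammation, Il1rn, the interleukin 1 receptor antagonist, was the called gene of 36 (2.30, SE 0.46, adjusted p = 0.00427). Its WT levels were -7.20 to -4.96 and its LKO levels ran from -4.26 through -3.88 to -1.53. It was called without replicate 3, but lost its call in 3 alternatives that kept every animal. Their adjusted p was 0.0563 to 0.14, the highest after normexp correction. Of 23 genes of the unfolded protein response limma called 0 (2, or 8.70%, at an unadjusted p below 0.05, against 15.9% of all genes). In a separate list of 23 measured genes of the integrated stress response, 1 was lower, the phosphatase subunit Ppp1r15a (-0.30). Members were also called in the immediate early genes (Jund, 0.38, 1 of 25) and the cell cycle (Cdkn1a 1.29 and Mcm4 -0.58, of 24). Of 29 autophagy and lysosome genes, 2 were higher, among them Ctsl at 0.38, and 1 lower, Fnip1 at -0.39. Without replicate 3, 6 cell cycle genes were lower. Of these genes, Sult1a1, Cyp17a1, C6, Ppp1r15a, Jund, Cdkn1a, Mcm4 and Ctsl each lost their call without any of 4 to 8 single animals, with adjusted p of 0.0501 to 0.107.

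Other genes with large differences belonged to no list. Lower were Mtnr1a, a melatonin receptor (-3.27, SE 0.39, well above background in 5 WT and 1 LKO animals), the glutaminyl cyclase Qpct (-2.41, SE 0.12), the endoplasmic reticulum protein Rtn4 (-2.26, SE 0.15), Tmtc2 (-2.29, SE 0.17), the mitochondrial carrier Slc25a34 (-2.21, SE 0.19) and the kinetochore subunit Spc25 (-2.03, SE 0.15). Qpct had WT levels of 0.43, 0.10, 0.35, 0.64 and 0.22 and LKO levels from -2.36 through -2.07 to -1.74. All 6 of these genes had adjusted p between 2.66e-11 and 1.4e-05, and the rule that named them took genes whose groups did not overlap. The difference of Mtnr1a was -1.18 after normexp correction. The neighbouring monocarboxylate carriers Slc16a11 and Slc16a13 on chromosome 11 were both lower, Slc16a11 3.43-fold (-1.78, SE 0.13) and Slc16a13 by -2.0 (SE 0.23), or -0.73 after normexp correction, with 2 LKO animals well above background. All 4 measured members of the Raet1 family, ligands of the natural killer cell receptor NKG2D, were lower, with Raet1e at -2.13 (SE 0.21, adjusted p = 9.68e-07), though these genes are near-identical in sequence. Of 44 mitochondrial carriers of the Slc25 family, chosen after their values were seen, 6 were lower, where 1.99% of all genes were lower.

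Higher were Serpinb1a, the neighbour of Serpinb1c (2.42, SE 0.40, adjusted p = 0.000836), Lrtm1 (2.54, SE 0.36), the membrane protease Tmprss4 (1.96, SE 0.25), Ttc39a (1.92, SE 0.26), the actin bundling protein Espn (1.84, SE 0.28), the citrate carrier family member Slc13a2 (1.83, SE 0.28), the chemokine Cxcl14 (1.80, SE 0.28) and the water channel Aqp4 (1.74, SE 0.21). Serpinb1a had WT levels of -2.67 to -1.66 and LKO levels of 0.32 to 1.14 except in replicate 3, at -1.92, and Cxcl14 was at 1.94 in replicate 3 against -0.36 to 0.07 in the other LKO animals. Evc and Evc2, divergent neighbours on chromosome 5 that act in hedgehog signalling at the cilium, rose 3.64-fold and 3.40-fold (SE 0.17 for both, adjusted p = 2.64e-07 and 8.77e-07). Evc had WT levels of -2.87, -2.42, -3.28, -2.40 and -2.69 and LKO levels from -1.27 through -0.87 to -0.55. The simple epithelial keratins Krt8 and Krt18, which pair in hepatocytes, were 1.31-fold and 1.36-fold higher (adjusted p = 0.0112 and 0.0159). No animals overlapped for Evc, Evc2, Krt8 and Krt18.

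Limma called 0 of the 14 hepatocyte, 14 endothelial, 13 macrophage, 15 stellate, 10 lymphocyte, 9 neutrophil and monocyte, 6 pancreas and 4 skeletal muscle markers measured (1, 1, 0, 3, 2, 1, 0 and 0 in that order at an unadjusted p below 0.05, against 15.9% of all genes). Lists this short would hold few calls at the share of 3.97% over all genes. The summed hepatocyte level lay between 12.6 and 12.8 in both groups, that of endothelium between 5.75 and 6.12 in WT and 5.64 and 6.20 in LKO, and that of macrophages between 6.5 and 6.95 and between 6.53 and 7.03. Lymphocyte markers had positive differences for all 10 genes, from 0.06 to 0.48, with sums of 4.72 to 5.14 in WT and 5.00 to 5.34 in LKO. Sox9 was the called marker of 9 for cholangiocytes (0.84, SE 0.18, adjusted p = 0.00689). Of 6 red blood cell markers Alas2 was higher (0.48, SE 0.10, adjusted p = 0.00754), and the summed level of that list was 8.08 to 8.51 in WT and 8.08 to 9.27 in LKO. Of 7 adipocyte markers Cfd, the protease adipsin, was lower (-3.20, SE 0.52, adjusted p = 0.000635) and Adrb3 higher (0.76, SE 0.12, adjusted p = 0.000687), with sums of 2.23 to 2.41 and 2.24 to 2.68. The average over that list, relative to the WT mean, did not overlap, at -0.182 to 0.349 in WT and -0.629 to -0.317 in LKO, while its median difference was -0.10. Cfd had by far the largest difference of the 7 genes in this average, which was not taken without it. Cfd had WT levels of -1.81, -0.95, -2.72, -1.34 and -2.23 and LKO levels from -6.51 to -4.02, well above background in 5 WT and 2 LKO animals. After normexp correction its difference was -1.51. The part of blood, lymphoid or adipose cells in these values was not tested.

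Whether the fed differences carried over to fasted mice was examined with the other 11 animals. In fasted LKO mice 6543 genes (38.0%) were called, 3431 lower (19.9%) and 3112 higher (18.1%). Of the 342 genes that were lower when fed, 278 were lower when fasted (81.3% of the fed and 8.10% of the fasted list), and of the 342 that were higher, 202 were higher when fasted (59.1% and 6.49%). A further 32 of the 684 genes were called in the opposite direction. The test of the change itself, the interaction of genotype and feeding, called 3147 genes (18.3%), 1327 with a more positive difference when fasted (7.71%) and 1820 with a more negative one (10.6%), and 269 of them were among the 684. In 139 of the 167 lower genes so called, the difference was larger in fasted mice in the same direction, against 32 of 102 higher genes. Without fed LKO replicate 3 the interaction called 3999 genes, and without any other single fed animal 2778 to 3082. The other counts of this paragraph rest on all animals.

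**Figure D4:**
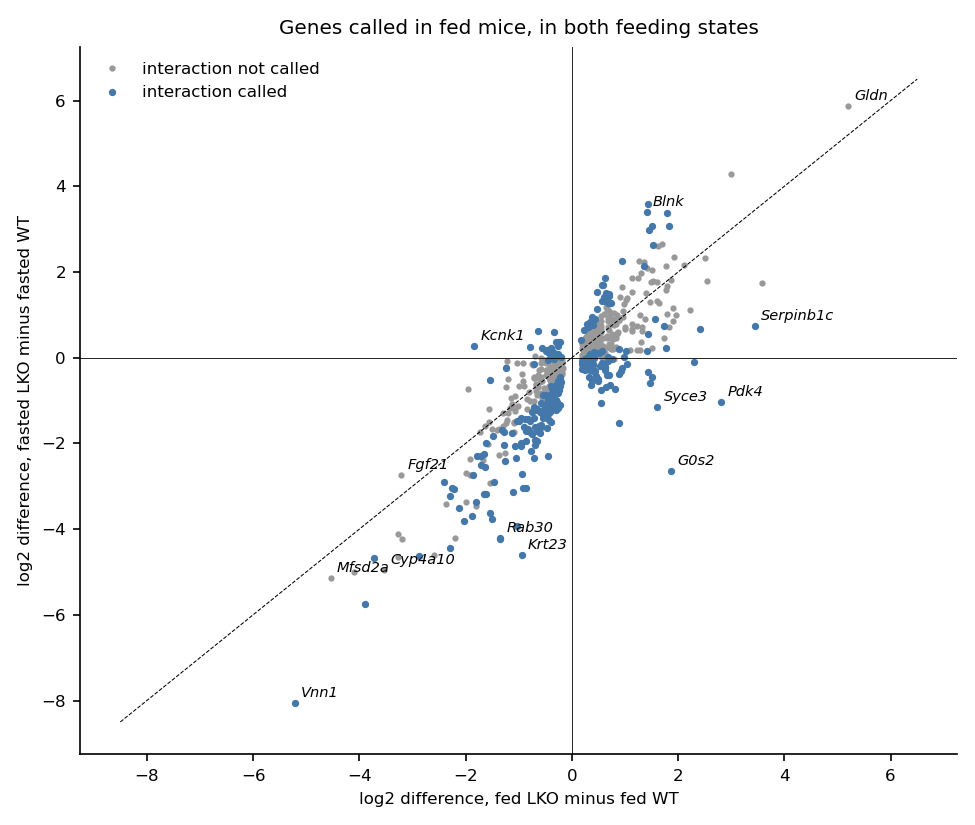
Log2 difference between LKO and WT in fasted mice (vertical axis) against that in fed mice (horizontal axis) for the 684 genes called in fed mice, in blue where the interaction of genotype and feeding was called, with a dashed line at equality. Of the 342 lower genes 278 are lower in fasted mice as well, while Pdk4, G0s2 and Syce3 lie at the lower right, higher in fed and lower in fasted LKO mice. Syce3 was well above background in 1 fed WT animal.

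For fatty acid oxidation the fed difference was the smaller one. Of the 26 mitochondrial genes 25 were lower in fasted LKO mice, with a median of -1.27, and the interaction was called for 24. Of the 31 peroxisomal genes 25 were lower and the interaction was called for 24. Acadm and Ehhadh, which showed differences near 0 when fed, were lower by 1.03 and 3.76 log2 units when fasted (interaction adjusted p = 1.24e-05 and 4.06e-11). Ehhadh stood at 6.90 to 7.24 in fasted WT and 3.01 to 3.50 in fasted LKO, the latter near the fed range of both genotypes. Cd36 (interaction -2.84, adjusted p = 6.72e-07) was likewise lower in fasted LKO mice. Cyp4a10, Mfsd2a, Gldn, Abcg5 and Abcg8 had no called interaction (adjusted p of 0.216, 0.53, 0.548, 0.988 and 0.475), which does not show equal differences.

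Several genes reversed. Pdk4 stood at 1.75 to 3.17 in fasted WT and 1.28 to 1.85 in fasted LKO (difference -1.03, adjusted p = 0.00771), so that the fed excess of 2.81 became a deficit (interaction -3.85, adjusted p = 2.97e-06). G0s2 stood at 4.83 to 6.06 in fasted WT and 2.21 to 3.26 in fasted LKO (difference -2.65, interaction -4.52, adjusted p = 8.17e-06). In LKO mice the fasted ranges of both genes overlapped with the fed ranges, whereas in WT mice they did not. Lamb3, a laminin chain, Syce3 and the lactate carrier Slc16a1 also turned from higher to lower (interaction -2.40, -2.77 and -0.93, adjusted p = 1.48e-07, 6.05e-05 and 1.6e-05), and Pogk, Fnip1 and Ppp1r15a from lower to higher (1.25, 0.61 and 0.67). Syce3 was well above background in 1 fed WT animal, and its fed difference of 1.61 was 0.47 after normexp correction, so that its size is not exact.

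Some fed differences grew and others faded. The retinol saturase Retsat, the small GTPase Rab30 and the keratin Krt23 differed by -1.04, -1.35 and -0.94 when fed and by -3.92, -4.21 and -4.60 when fasted (interaction adjusted p = 2.48e-06, 4.41e-07 and 4.67e-07). Blnk, an adaptor of B cell signalling, differed by 1.41 and 3.39 (adjusted p = 8.53e-05). The fed call of Krt23 was lost without any of WT 3, 4 or 5 or LKO 5 (adjusted p of 0.0516 to 0.0674). The Cyp3a genes went the other way, with fasted differences of 0.18 for Cyp3a11, 0.08 for Cyp3a25, 0.02 for Cyp3a57 and 0.12 for Cyp3a59, none of them called, and interaction adjusted p of 0.0157, 0.0127, 0.0388 and 0.00728. Kcnk1 and Serpinb1c had fasted differences of 0.28 and 0.73 (adjusted p = 0.549 and 0.0576; interaction 0.00349 and 0.000177).

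**Figure D5:**
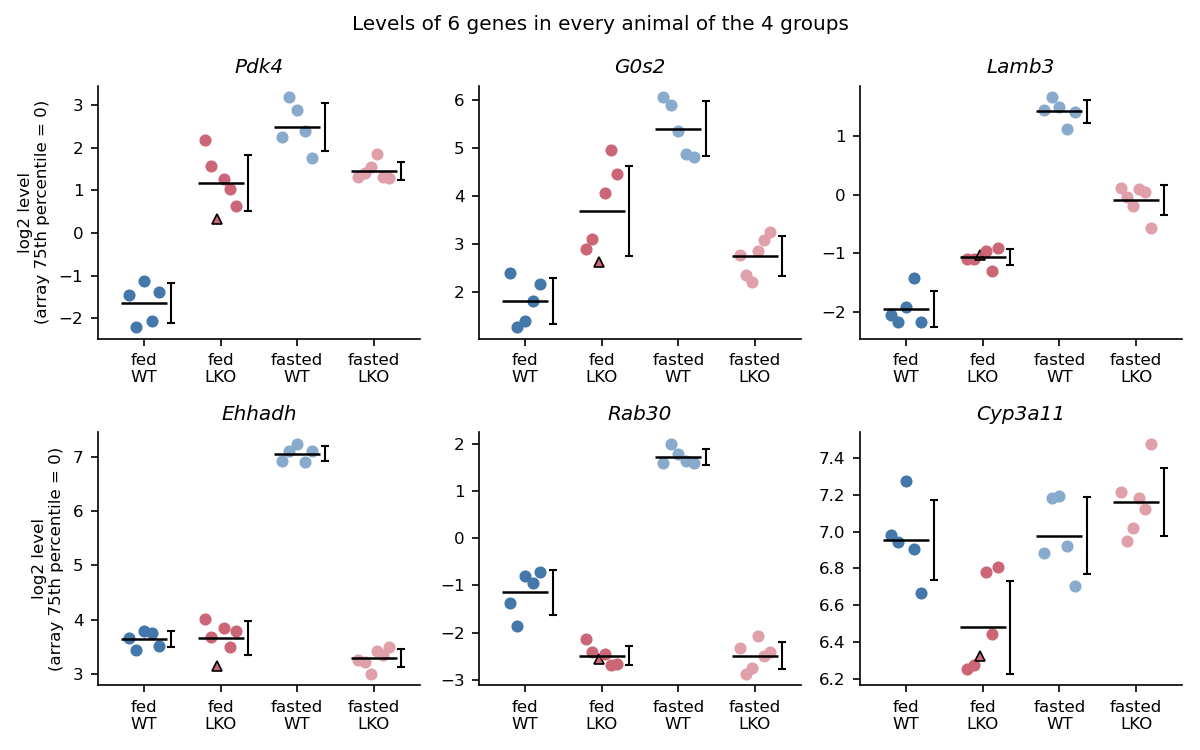
Log2 level (vertical axis, 75th percentile of the array at 0) of 6 genes in every animal of the fed and fasted groups (horizontal axis), with a triangle with a black edge for fed LKO replicate 3, a bar for the mean and an error bar for the SD. Pdk4 and G0s2 are higher in fed LKO than fed WT and lower in fasted LKO than fasted WT, whereas Ehhadh separates the genotypes in fasted mice, at 6.90 to 7.24 against 3.01 to 3.50.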

How the data were processed

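Liver RNA was measured on 1-colour Agilent arrays with Cy3. Per the file headers, the deposited scanner files hold fluorescence intensity written by Agilent Feature Extraction 10.10.1.1, background-subtracted and detrended, with no normalization between arrays, and probe positions are in mm9. A second deposited table from the authors holds log2 values for 31356 probes, made with limma per the submitters' processing notes. Its column medians are 8.162 to 8.169 and its columns correlate at 0.9926 to 0.9948 with the scanner values. Its centring and exact scale are not given in the sources used here. It served as an alternative, in which 16548 genes were tested.

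Here, outlier spots were left out, spots of a probe averaged and log2 signals set relative to the 75th percentile of the array. Of 56605 probes 46291 carried a symbol, 28138 of these passed the scanner's background flag in 5 or more of 22 animals, and the brightest kept probe stood for its gene, which gave 17215 genes. Another kept probe existed for 299 of the 684 called genes, and for 251 all such probes had the direction of the one used. limma 3.58.1 in R 4.3.3 fitted 1 mean per group over all 4 groups, with Benjamini-Hochberg adjustment. p-values measure the spread between these animals, whose number limits the precision. The 2 arrays of fed WT replicate 3 had a median difference of 0.0868, against 0.144 to 0.194 between animals. For genes undetected in 1 group, each array of it was set at its own signal or, if higher, the dimmest detected probe's. The fold that results is not a strict lower limit. The calculations were tested on simulated data.

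The comparison, the gene lists and the rule for named genes were chosen with earlier results of these data known. That rule took a panel of genes, the 20 largest non-overlapping differences in each direction, the 4 largest of each list and the 10 largest interactions each way. Other genes named, among them further called members of the lists, neighbours and paralogues, were chosen after their values were seen, and some genes that the rule names are not reported here. Symbols are those of the array design. Of the genes tested, 14653 were matched to a RefSeq gene by accession and 1523 by symbol, and 1039 were not matched. Promoters were found for 12747. The array slide equals the scan. Alternatives were quantile normalization, normexp background correction with an offset of 50, no filter on dim probes, probes averaged, the deposited table, a fit to fed animals alone, the slide or the replicate number as a block, and each fed animal left out.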

Additional observations from a re-analysis of the deposited data

Results flagged for a closer look

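Of 308 groups of levels examined, 33 had 1 animal far from the rest by Dixon's criterion, where chance gives about 1 in 20, and 24 of these concern fed LKO replicate 3. Its level was below the range of the other 5 LKO animals, given after it, for Vnn1 (-5.80, others -3.86 to -3.37), Fitm1 (-2.93, -1.46 to -0.80), Lrtm1 (0.41, 2.59 to 3.06) and Serpinb1a (-1.92, 0.32 to 1.14). Among metabolic enzymes it was below for Eci1 (5.01, 5.23 to 5.34), Decr1 (5.88, 6.22 to 6.41), Bdh2 (3.53, 3.96 to 4.12) and Prodh (5.87, 6.49 to 6.61). The same held for Ephx2 (6.99, 7.63 to 7.80), Agpat3 (4.88, 5.10 to 5.21), Cyp2a4 (7.81, 8.05 to 8.10) and Cyp2a5 (8.30, 8.66 to 8.84). Of exporters and secreted proteins, Abcb4 (4.74, 5.15 to 5.33), Abcg2 (3.74, 4.37 to 4.75) and Angptl4 (4.54, 5.65 to 6.29) were below.

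The level of replicate 3 was above the other LKO animals for the metallothioneins Mt1 (9.32, 4.41 to 5.22) and Mt2 (9.32, 3.27 to 4.35), Cxcl14 (1.94, -0.36 to 0.07) and Agpat9 (-0.92, -2.77 to -2.08). It was also above for Slc22a5 (1.34, 0.73 to 0.84), Plin2 (5.66, 5.11 to 5.28), Jund (4.45, 3.87 to 4.05), Ctsl (7.54, 6.94 to 7.06) and Krt18 (7.03, 6.28 to 6.48). Fed LKO replicate 1 stood apart for Esrrg (-4.82, others -7.39 to -6.57), Serinc2 (-2.60, -3.43 to -3.22), Chka (0.34, 0.62 to 0.74), Dbp (3.74, 3.13 to 3.35), Cyp2b10 (5.75, -0.68 to 1.59) and Cyp2b9 (4.09, -2.48 to -0.16). LKO replicate 5 stood apart for Cyp4a10 (-1.70, -0.92 to -0.70), WT replicate 5 for Fgf21 (-0.88, -4.01 to -3.44) and WT replicate 2 for Pogk (-3.51, -3.12 to -2.99).

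For 84 named genes the genotype difference itself differed between feeding states by limma's interaction term. The values that follow are the fasted minus the fed difference. Genes lower in both states and more so in fasted mice included, in fatty acid import and mitochondrial oxidation, Slc25a20 (-0.78), Cpt2 (-1.04), Slc22a5 (-0.97), Acadvl (-0.45), Acads (-0.58), Hadha (-1.02), Hadhb (-0.98) and Acaa2 (-0.34). The same list held Eci1 (-1.27), Eci2 (-0.34), Decr1 (-0.86), Etfb (-0.52) and Etfdh (-1.16). In peroxisomes they were Eci3 (-0.38), Ech1 (-0.45), Hsd17b4 (-1.09), Pxmp4 (-0.55), Acot8 (-1.34), Abcd2 (-2.90), Abcd3 (-0.87), Acaa1a (-0.70), Decr2 (-0.26) and Slc27a2 (-0.48). Abcd2 was well above background in 1 fed WT and no fed LKO animal, so that its value is not exact.

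Other lipid and fuel genes of that kind were Vnn1 (-2.84), Ppcs (-0.88), Aldh3a2 (-1.12), Aldh9a1 (-0.66), Fitm2 (-1.22), Hsd17b11 (-1.28), Agpat9 (-1.55), Gpd1 (-1.17), Gpd2 (-0.70) and Retsat (-2.88). Genes of other function were Serinc2 (-1.85), Caln1 (-0.93), Slc35f2 (-1.77), Qpct (-0.49), Rtn4 (-0.78), Slc25a34 (-0.86), Raet1e (-1.37), Nr1d1 (-0.96), Krt23 (-3.66), Rab30 (-2.86), Slc16a11 (-0.53), Spc25 (-1.77), Tmtc2 (-0.95) and Cabp4 (-1.43). Higher in both states and more so in fasted mice were Espn (1.24), Chka (1.13), Cyp2a4 (0.48), Blnk (1.98), Jund (0.57) and C6 (0.66), and less so Aqp4 (-1.0) and Apoa4 (-0.65).

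Called in opposite directions were Pdk4 (-3.85), G0s2 (-4.52), Slc16a1 (-0.93), Syce3 (-2.77), Lamb3 (-2.40), Fnip1 (0.61), Ppp1r15a (0.67) and Pogk (1.25). Called in fed but not in fasted mice were Serpinb1c (-2.71), Serpinb1a (-1.74), Il1rn (-2.40), Fabp5 (-1.96), Got1 (-1.06), Aldh1b1 (-1.23), Kcnk1 (2.11), Cyp3a11 (0.66), Cyp3a25 (0.49), Cyp3a57 (0.40) and Cyp3a59 (0.58). Called in fasted but not in fed mice were Cyp4a14 (-3.95), Acadm (-1.03), Ehhadh (-3.78), Acaa1b (-1.91), Cd36 (-2.84), Fabp1 (-0.98), Srebf1 (-0.53), Cyp7a1 (-2.89), Acot1 (-2.46) and Acot3 (-4.23).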

How the results depend on the processing

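Of 133 called genes named here, all kept their direction and 81 also their call in the 19 alternatives, or 18 for Abcd2, which was not tested in the deposited table. A fit to the fed animals alone, with fewer samples behind the spread, called 376 genes, 179 higher and 197 lower. It left 1 lower gene of ketone bodies, 1 of fatty acid uptake and 1 of triglyceride and phospholipid synthesis, 2 lower nuclear receptors, 0 lower P450 genes, 2 higher amino acid genes and 1 higher sex-biased gene, and Ppara at -0.66 missed the threshold. Without the filter on dim probes, which tests more genes, 223 genes were higher, with 1 lower triglyceride and 2 higher amino acid genes. At least 2-fold differences numbered 40 higher and 52 lower after normexp correction and 46 higher in the deposited table. With the slide as a block 2 amino acid genes were higher. With the replicate number as a block 535 genes were called, 256 higher and 279 lower, with 2 amino acid genes and 1 sex-biased gene higher. Same-numbered animals did not deviate together (correlations of -0.134 to 0.034, 0 of 5 pairs over 0.1), and the main fit did not use the numbers as pairs. Correlations over 5 pairs cannot exclude a pairing. Leaving out each animal gave 214 to 472 higher genes, 1 to 3 lower ketone body genes, 1 to 4 lower triglyceride genes, 1 to 3 higher amino acid genes and 1 to 3 higher sex-biased genes. Differences near 0 changed sign: Acadm to 0.0038 with the slide block and between -0.061 and 0.080 with animals left out, Ehhadh to -0.011 with the replicate block and between -0.048 and 0.126, and Fasn between -0.132 and 0.338. The cause of these changes was not tested. Weak signals limit the size of 17 differences, such as Esrrg (-1.24 after normexp correction), Serpinb1c (0.75), Slc35f2 (-0.68), Kcnk1 (-0.45), Cabp4 (-0.32), Cfd (-1.51), Il1rn (0.65), Syce3 (0.47) and Acot6 (0.54).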

Other observations

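Metallothioneins, which bind zinc and copper and respond to glucocorticoids and metals, were not called in the fed comparison, although their animals did not overlap. Mt1 had WT levels of 3.26, 3.34, 3.68, 4.13 and 4.15 and LKO levels of 4.48, 4.53, 5.21, 5.22 and 4.41 besides 9.32 in replicate 3 (difference 1.82, SE 0.60, adjusted p = 0.105). Mt2 had WT levels of 1.87, 1.93, 2.58, 2.63 and 3.03 and LKO levels of 3.27, 3.77, 4.35, 3.78 and 3.87 besides 9.32 in replicate 3 (difference 2.32, SE 0.72, adjusted p = 0.0816). The fasted differences, 1.11 and 1.58, were not called either (adjusted p = 0.158 and 0.0905). Without replicate 3 the fed differences were smaller, at 1.06 and 1.40, and both were called (adjusted p = 0.0066 and 0.00135). In fasted mice, Mt1 ran from 6.89 to 7.83 in WT and from 8.19 to 8.93 in LKO animals, and Mt2 from 5.94 to 6.94 and from 7.78 to 8.72, so that fed LKO replicate 3 lay above every other animal at both genes.

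Moxd1, a monooxygenase-like protein, had the largest difference among genes not called (3.39, SE 1.09, adjusted p = 0.0944). Its WT levels were -3.32, 3.15, -2.0, 0.11 and -0.39, and its LKO levels ran from 0.04 to 4.60. WT replicates 2 and 4, at 3.15 and 0.11, lay within the LKO range, and without WT replicate 2 the adjusted p was 0.0193. Moxd1 was also called without LKO replicate 4 and after normexp correction (0.0457 and 0.043). In fasted mice the difference of Moxd1 was 5.92 (adjusted p = 0.000226). Cabp4, a calcium binding protein, was well above background in all WT and no LKO animals when fed. With the LKO arrays set at the lowest signal that counted as detected, it was 1.76-fold lower in LKO (adjusted p = 0.00368). After normexp correction its difference was -0.32.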
